A study of Mus musculus with 3 samples.

Results

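The Xcr1/Clec9a cells were cells of injured mouse muscle, chosen by their measured UMIs (counted RNA molecules), with at least 2 UMIs of Xcr1 and Clec9a together. Cells entered the gate with at least 500 detected genes, under 10% mitochondrial UMIs, no UMI of Pdgfra (a gene of fibro/adipogenic progenitors, FAPs), no UMI of Cd3e (a T cell gene) and fewer than 3 UMIs of Ccr7 and Ccl22 (genes of mature dendritic cells). Of 35247 cells that passed the quality filter, 343 met the rule, namely 132 from the young PBS library, 73 from old PBS and 138 from old rMETRNL. Xcr1 (chr9:123852315-123862029, minus strand, mm10) encodes a chemokine receptor and Clec9a (chr6:129408862-129424763, plus strand) encodes a lectin that binds actin filaments exposed by dead cells. Because both genes chose the cells, their levels describe the gate and were not tested.

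Dendritic cells take up antigen and present it to T cells. The conventional type 1 subset, which depends on the transcription factors Irf8 and Batf3, is known for cross-presentation, in which peptides of engulfed dead cells are shown to CD8 T cells on MHC class I. A second conventional subset depends on Irf4 and Klf4 and presents mainly on MHC class II to CD4 T cells. Cells with at least 2 UMIs of Cd209a, a lectin gene of that second subset and of monocyte-derived dendritic cells, served as the compared population. These 554 Cd209a cells met the other conditions of the gate, and none was an Xcr1/Clec9a cell. The 16 Xcr1/Clec9a cells that also held at least 2 UMIs of Cd209a stayed with the Xcr1/Clec9a cells.

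The study asked how muscle of aged mice responds to injury and to recombinant meteorin-like protein (rMETRNL), a secreted factor of the Metrnl gene. C57/BL6J mice received barium chloride in the tibialis anterior muscle, and single cells were isolated 4 days later. The study's methods give 3 to 4 months for young mice (here young PBS) and 24 to 26 months for old mice (old PBS and old rMETRNL). For the rMETRNL injections its results text gives 4 and 24 months. All groups were injured, and injections of PBS or rMETRNL into the muscle followed the injury at once and after 24 and 48 h. Each group was a single library that pooled 3 samples, so no spread between mice could be measured. Intervals of shares, levels and ratios between libraries are exact 95% intervals that cover counting error only. For gene levels and their ratios they count every UMI as independent, so the uneven spread of UMIs over cells is not covered. Fewer cells of a type and fewer cells that pass a gate on 2 transcripts cannot be told apart in these data.

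The libraries held 218059089, 179295668 and 228966697 UMIs in the order young PBS, old PBS and old rMETRNL, which is the order of all values below. The median Xcr1/Clec9a cell held 14733.5, 14044 and 13561.5 UMIs, and their summed counts were 2230815, 1185835 and 2102724 UMIs. Between 58 and 80 barcodes were shared by each pair of libraries, and 0 of the shared barcodes belonged to Xcr1/Clec9a cells. A doublet caller set to a fixed rate of 0.8% per 1000 barcodes marked 17.4%, 5.48% and 8.70% of the Xcr1/Clec9a cells, beside 10.2%, 10.6% and 11.3% of all scored barcodes. These cells were kept.

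Xcr1 stood at 166, 89.4 and 144 CPM (UMIs of a gene per 1000000 UMIs) in the Xcr1/Clec9a cells, and Clec9a stood at 145, 129 and 156 CPM. In Pdgfra-positive FAPs, Xcr1 had 1 or 2 UMIs and Clec9a had 0 UMIs in each library of 1211 to 1490 cells. Both transcripts were present in 189 Xcr1/Clec9a cells, Xcr1 alone in 37 and Clec9a alone in 117. The sum of both was exactly 2 in 110 cells just inside the threshold, and a further 486 cells with a sum of 1 lay just outside it. Of 412 cells with a sum of at least 2, the Ccr7/Ccl22 condition removed 57 cells, the Pdgfra condition 10 and the Cd3e condition 2. The Ccr7/Ccl22 condition removed 15, 22 and 20 cells in the 3 libraries.

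The label of conventional type 1 dendritic cells was checked against Naaa and Wdfy4, 2 markers outside the gate. Naaa, which encodes a lysosomal amidase, stood at 650, 562 and 727 CPM in Xcr1/Clec9a cells against 69.1, 128 and 96.5 CPM in Cd209a cells. Wdfy4, a gene required for cross-presentation of cell-bound antigen, stood at 282, 283 and 285 CPM against 47.1, 38.4 and 34.2 CPM. In FAPs, Naaa stood at 29.9 to 40.2 CPM and Wdfy4 at 0.398 to 1.36 CPM. Both markers were therefore higher in Xcr1/Clec9a cells than in Cd209a cells in every library, without overlap. Of the 343 cells, 24 (7.0%, exact binomial interval 4.53 to 10.2%) had no UMI of either marker, and 20 of these 24 carried Clec9a without Xcr1.

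The cells with Clec9a alone differed from those with both gate genes. Over the 3 libraries together, Naaa stood at 341 CPM in cells with Clec9a alone and 841 CPM in cells with both, and Irf8 at 776 and 1320 CPM. Itgae, which encodes the integrin CD103, stood at 22.4 and 64.4 CPM, and Tlr3 at 24.6 and 100.1 CPM. The 3 genes of other cells given next ran the opposite way, and whole lists were not compared between these subsets. Siglech, a lectin of plasmacytoid dendritic cells, stood at 96.3 CPM with Clec9a alone and 2.57 CPM with both, Tcf4, the transcription factor of that lineage, at 209 and 73.1 CPM, and the monocyte gene Ly6c2 at 623 and 85.9 CPM. At least 2 UMIs of Siglech were found in 15 of the 343 cells (4.37%, interval 2.47 to 7.11%), and all 15 lacked Xcr1. The share of cells with Clec9a alone was 31.8% (24 to 40.5%), 45.2% (33.5 to 57.3%) and 30.4% (22.9 to 38.8%), with intervals that overlap.

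Macrophage transcripts were found in part of the cells. C1qa, a complement gene of macrophages, stood at 700, 542 and 588 CPM, and cells with over 0.1% of their UMIs from C1qa, C1qb and C1qc made up 20.5%, 20.5% and 15.2% of Xcr1/Clec9a cells. The median such cell held 24257, 13078 and 20634 UMIs, against 13920, 14263.5 and 13177 in the rest. All 12 genes of the macrophage list had UMIs in every library, and their summed level was 5621 to 9441 CPM in Xcr1/Clec9a cells and 6974 to 8489 CPM in Cd209a cells. The median Xcr1/Clec9a cell had 535 to 665 CPM of the list, against 14698 to 19028 CPM in the median kept cell. The 7 T cell genes summed to 4.28 to 8.97 CPM and the 7 natural killer genes to 7.13 to 67.7 CPM. The part of doublets or of free RNA in the values below was not tested.

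**Figure D1:**
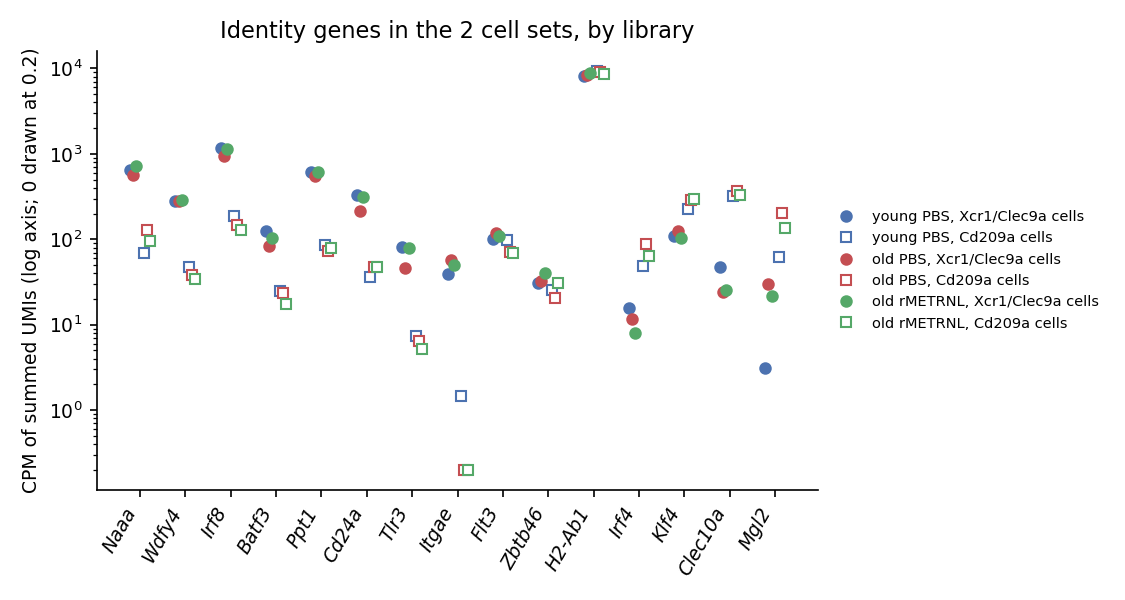
Level of 15 identity genes in Xcr1/Clec9a cells (filled circles) and Cd209a cells (open squares) of each library, as CPM of summed UMIs on a log axis with 0 drawn at 0.2. Naaa, Wdfy4, Irf8, Batf3, Ppt1, Cd24a, Tlr3 and Itgae lay higher in Xcr1/Clec9a cells in all 3 libraries, Flt3, Zbtb46 and H2-Ab1 lay close together, and Irf4, Klf4, Clec10a and Mgl2 lay lower.

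Xcr1/Clec9a cells and Cd209a cells were compared across genes with edgeR's quasi-likelihood test on UMIs summed per library, with the library as a block. The 3 libraries were 3 conditions, so the spread in this test holds differences between conditions too. Of 9304 genes tested, 354 were higher in Xcr1/Clec9a cells (3.8% of genes tested) and 411 were lower (4.42%) at an adjusted p under 0.05 and at least a 2-fold difference. The median log2 fold over all genes was -0.01. Genes of the gates were left out of these counts.

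Genes of conventional type 1 dendritic cells were higher as a group, with 19 of 20 measured genes called higher, none called lower, and a median log2 fold of 2.78. The transcription factor Irf8 stood at 1183, 948 and 1144 CPM against 189, 149 and 130 CPM in Cd209a cells (log2 fold 2.81 ± 0.11 SE, adjusted p = 2.76e-06). Its partner Batf3 stood at 125, 84.3 and 104 CPM against 25, 23.5 and 17.5 CPM (log2 fold 2.28 ± 0.16, adjusted p = 3.43e-05). Neither gene overlapped between the cell sets. Ppt1, a lysosomal thioesterase, differed with a log2 fold of 2.89 ± 0.09, the adhesion gene Cadm1 with 1.90 ± 0.16, the sorting nexin Snx22 with 5.53 ± 0.30 and the integrin Itgae with 6.22 ± 0.48. Id2, a repressor of competing lineages, had the weaker log2 fold of 1.5 ± 0.21 (adjusted p = 0.00143), with 563, 609 and 587 CPM against 134, 364 and 179 CPM. Cd8a, the co-receptor gene of lymphoid organ cells of this subset, was the exception on the list, at 13, 10.1 and 8.08 CPM against 12.1, 3.56 and 4.79 CPM (log2 fold 0.56 ± 0.33, adjusted p = 0.273). Cst3, the protease inhibitor cystatin C, was the most abundant of the genes described, at 14612, 14841 and 14472 CPM against 3382, 3249 and 3149 CPM (log2 fold 2.15 ± 0.04, adjusted p = 2.92e-08).

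Of 13 measured genes of the second conventional subset, 12 were lower in Xcr1/Clec9a cells and none was higher, with a median log2 fold of -2.35. Irf4 stood at 15.7, 11.8 and 8.08 CPM against 48.2, 87.5 and 63.0 CPM (log2 fold -2.40 ± 0.26, adjusted p = 0.000304). Klf4 had a log2 fold of -1.27 ± 0.11 and Zeb2, a repressor in the choice between the subsets, one of -1.55 ± 0.11, although Zeb2 was counted on the list of lineage factors. Sirpa, a receptor for the CD47 signal of healthy cells, was the listed gene that was not called, with a log2 fold of -0.93 ± 0.10 under the 2-fold limit. The list includes Cd209d, a relative of the gate gene Cd209a, and reads of near-identical lectin genes may be split between copies. Genes shared by both subsets differed little. Of 9 such genes, only the stem cell factor receptor Kit was called, at 87.4, 81.0 and 79.4 CPM against 39.7, 31.3 and 28.4 CPM (log2 fold 1.31 ± 0.13, adjusted p = 0.000253), while the cytokine receptor Flt3 (log2 fold 0.44 ± 0.15, adjusted p = 0.071) and the factor Zbtb46 (0.41 ± 0.16, adjusted p = 0.107) were not.

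Of other cell types, the plasmacytoid list had 0 of 8 genes called in either direction, the FAP list 0 of 6, the endothelial list 0 of 5, the macrophage list 1 of 12 lower (Mrc1) and the monocyte list 1 of 7 lower (F13a1). The muscle list had 4 of 6 genes higher, namely Acta1, Ckm, Myl1 and Tnnt3, structural or metabolic genes of the myofibre. Acta1 stood at 21.1, 123 and 203 CPM against 12.5, 51.9 and 30.1 CPM (log2 fold 1.81 ± 0.32, adjusted p = 0.00425), and 53.2% to 80.9% of its UMIs in Xcr1/Clec9a cells came from 1 cell of each library. Across the alternative settings, 0 to 4 muscle genes were higher and 0 to 3 lower, 0 to 10 macrophage genes were lower, and 17 to 19 type 1 genes were higher. The plasmacytoid list then had 0 to 1 gene higher and 0 to 5 lower, the FAP list 0 to 2 in each direction and the endothelial list 0 to 2 lower. With at least 1 UMI of both gate genes required, 5 of 6 plasmacytoid genes were lower, with a median log2 fold of -2.65.

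Of 14 pattern recognition genes, Tlr3, Tlr11 and Tlr12 were higher and Ddx58 was lower. Tlr3, the endosomal sensor of double-stranded RNA, stood at 80.7, 45.5 and 78.9 CPM against 7.36, 6.4 and 5.13 CPM (log2 fold 3.49 ± 0.21, adjusted p = 1.68e-05). Tlr11 (log2 fold 3.54 ± 0.52) and Tlr12 (2.34 ± 0.50), which sense profilin of parasites, lay at 13.3 CPM or less in both cell sets. Ddx58, the cytosolic RNA sensor RIG-I, had a log2 fold of -1.14 ± 0.18. Of 14 uptake genes, Ly75 and Havcr2 were higher and Mrc1 and Clec4n lower, and over the alternative settings 2 to 3 uptake genes were higher and 1 to 7 lower, the most with at least 1 UMI of both gate genes required. Ly75, the endocytic receptor DEC-205, stood at 23.8, 22.8 and 21.9 CPM against 0.368, 0.711 and 2.40 CPM (log2 fold 4.12 ± 0.44, adjusted p = 0.000295). Havcr2, the checkpoint receptor TIM-3, stood at 95, 198 and 127 CPM against 52.2, 83.2 and 47.9 CPM (log2 fold 1.16 ± 0.13).

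Antigen presentation genes were near the level of Cd209a cells with a few exceptions. On the MHC class I list, 2 of 17 genes were higher and none lower, with a median log2 fold of 0.09. The immunoproteasome subunit Psmb9 stood at 597, 455 and 521 CPM against 236, 141 and 192 CPM (log2 fold 1.46 ± 0.09, adjusted p = 1.68e-05), and the proteasome activator Psme1 had a log2 fold of 1.02 ± 0.07. The class I heavy chains H2-K1 and H2-D1 had log2 folds of -0.48 ± 0.06 and -0.47 ± 0.05 and were not called, and reads of these near-identical genes are uncertain. On the MHC class II list, 0 of 12 genes were called higher and only Ifi30, a lysosomal thiol reductase, was called lower (log2 fold -1.22 ± 0.07). The list as a whole leaned lower, with a median log2 fold of -0.32 and 1 of 12 genes above 0. The class II chain H2-Ab1 stood at 8168, 8493 and 8874 CPM against 9412, 9161 and 8612 CPM (log2 fold -0.11 ± 0.05, adjusted p = 0.198). Of 12 genes for cross-presentation and vesicle traffic, Ncf4 (log2 fold 1.15 ± 0.11) and Rab43 (1.09 ± 0.10) were higher, and Cybb, the catalytic subunit of the phagocyte oxidase, was lower (-1.33 ± 0.10).

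Signals to and from T cells included the Cxcl9 and Cxcr3 pair. Cxcl9, an interferon-induced ligand of Cxcr3, stood at 268, 861 and 327 CPM against 47.1, 87.5 and 24.3 CPM (log2 fold 3.14 ± 0.20, adjusted p = 1.86e-05) and was the only one of 15 cytokine and chemokine genes called higher. In old PBS, 57.7% of its UMIs came from 1 cell. Cxcr3 itself stood at 34.5, 8.43 and 22.4 CPM against 3.68, 0.711 and 1.03 CPM (log2 fold 3.58 ± 0.34), while the inflammatory chemokine receptor Ccr1 (-2.45 ± 0.23) was lower. The chemokines Ccl6 and Ccl9 were lower as well, with log2 folds of -1.81 ± 0.24 and -1.79 ± 0.14. Among 11 costimulation and checkpoint genes, the inhibitory receptors Btla (1.28 ± 0.14) and Havcr2 were higher, and Cd40 (-1.01 ± 0.13) and Tnfsf9 (-2.04 ± 0.14) were lower.

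The genes furthest apart between the cell sets, with at least 20 CPM in the higher set and 1 direction in all libraries, included several that were on no list. Gpr141b, named as a receptor gene but annotated as a lincRNA in the gene models used, stood at 34.1, 27.8 and 59.9 CPM in Xcr1/Clec9a cells and at 0 UMIs in Cd209a cells, at least 100-fold higher when the 3 Cd209a libraries together are set at a floor of 3 UMIs. Gcsam, a signalling gene known from germinal centres, had 222 UMIs against 1 (ratio of pooled levels 283, interval 50.3 to 11245). The actin-binding Dbn1 (log2 fold 4.20 ± 0.37), the septin Sept3 (4.12 ± 0.21), Fam149a (3.88 ± 0.32), Lrrc1 (3.86 ± 0.36), Afap1 (3.32 ± 0.38) and the retrotransposon-derived Rtl8b (3.50 ± 0.21) and Rtl8a (3.20 ± 0.18) followed, beside Itgae, Snx22, Ly75, Cxcr3 and Tlr3.

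On the lower side, Cd209g had 0 UMIs in Xcr1/Clec9a cells and 8.09, 43.4 and 34.9 CPM in Cd209a cells, at least 48.3-fold lower at the same floor, and Cd209f had 1 UMI against 349 (273-fold lower, interval 48.7 to 10828). Both belong to the family of the gate gene. The fatty acid receptor Ffar2 had 3 UMIs against 175 (45.7-fold lower, interval 15.4 to 224). Il4i1 (log2 fold -4.72 ± 0.40), Mcemp1 (-4.25 ± 0.24), Fcor (-3.97 ± 0.27), Retnla (-3.86 ± 0.59), Fcna (-3.63 ± 0.32), the haemoglobin scavenger receptor Cd163 (-3.55 ± 0.22), the lectins Clec10a (-3.36 ± 0.20) and Mgl2 (-2.96 ± 0.22), Ctnnd2 (-3.14 ± 0.23), Fxyd2 (-3.03 ± 0.36) and Ifitm6 (-3.01 ± 0.22) were also lower. Hbb-bs, a haemoglobin gene, rested on the young library, with 1006 CPM in Cd209a cells of young PBS and 22.0 and 45.9 CPM in the others. Without young PBS its log2 fold was -0.86, under the 2-fold limit.

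**Figure D2:**
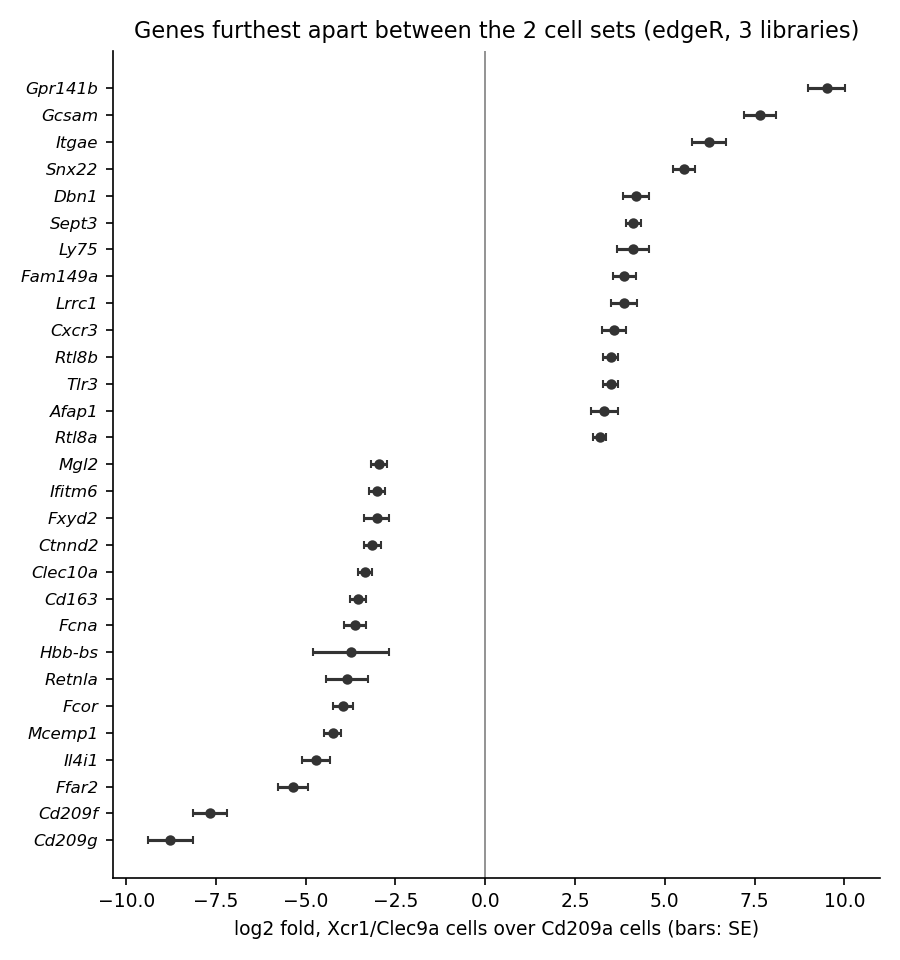
Log2 fold of Xcr1/Clec9a cells over Cd209a cells for 14 genes higher and 15 genes lower among those furthest apart, as points with bars of 1 SE from the edgeR fit over 3 libraries. Values ran from 9.51 for Gpr141b to -8.77 for Cd209g, and Hbb-bs had the widest bar.

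The share of kept cells that were Xcr1/Clec9a cells was 1.16% (interval 0.969 to 1.37%), 0.660% (0.518 to 0.829%) and 1.08% (0.907 to 1.27%). The age ratio, old PBS over young PBS, was 0.570 (0.422 to 0.765), and the treatment ratio, old rMETRNL over old PBS, was 1.63 (1.22 to 2.20). Old rMETRNL and young PBS differed by less than the counting error, with a ratio of 0.932 (0.729 to 1.19). The Cd209a cells moved alongside, at 1.90%, 0.940% and 1.82% of kept cells, or ratios for age of 0.494 (0.387 to 0.627) and for treatment of 1.94 (1.53 to 2.47). Among both sets together, Xcr1/Clec9a cells were 37.8%, 41.2% and 37.2%, and the ratios of 1.09 (0.808 to 1.46) and 0.902 (0.674 to 1.21) included 1. The order of these shares depended on the gate, and the counts did not resolve it in the main gate. With at least 1 UMI of both gate genes required, old PBS had 30 Xcr1/Clec9a cells and 108 Cd209a cells. Xcr1/Clec9a cells per Cd209a cell then had ratios of 0.758 for old PBS over young PBS and 1.18 for old rMETRNL over old PBS. No interval was made for these. Old PBS was nominally the lowest of the 3 libraries there and the highest in the main gate. Cells past the Ccr7/Ccl22 gate were 2.49%, 2.11% and 2.35% of kept cells, with ratios of 0.846 (0.708 to 1.01) and 1.11 (0.935 to 1.33). With 1 library per group, the spread of such shares between mice is unknown.

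**Figure D3:**
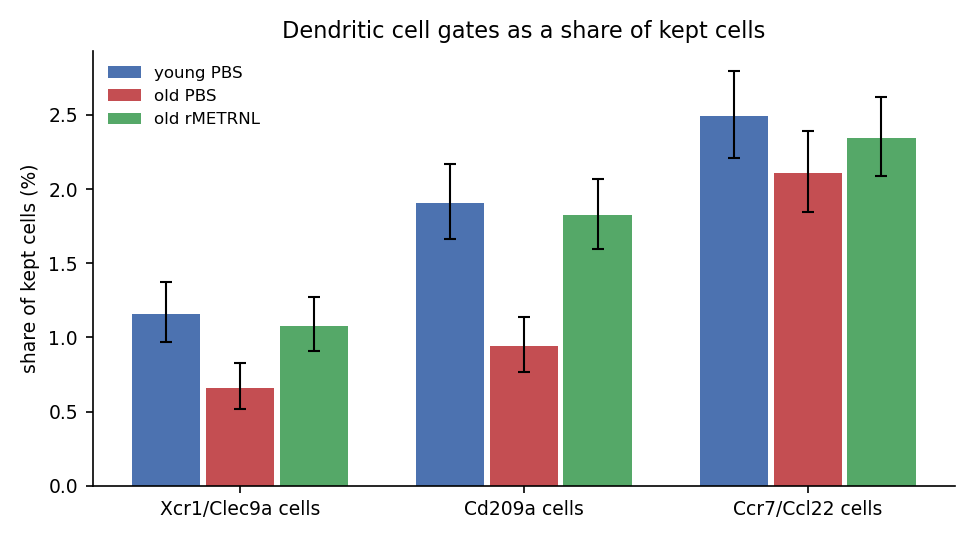
Share of kept cells (%) in 3 dendritic cell gates, as bars from 0 with exact 95% binomial intervals that cover counting error only, for each of the 3 libraries. The Xcr1/Clec9a and Cd209a bars of old PBS, at 0.660% and 0.940%, lay below those of the other libraries without overlap of intervals, while the intervals of the Ccr7/Ccl22 cells overlapped.

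Depth was considered because a shallower cell passes a gate on 2 UMIs less often. After every cell was thinned to 5000 UMIs, 69, 27 and 73 cells passed the gate, with 848, 2058 and 1709 shallower cells left out, and the ratios of shares were 0.459 (0.283 to 0.726) for old PBS over young PBS and 2.20 (1.40 to 3.55) for old rMETRNL over old PBS. At 2000 UMIs, 25, 10 and 19 cells passed, the ratio of old PBS to young PBS was 0.438 (0.188 to 0.945), and that of old rMETRNL to old PBS was 1.62 (0.715 to 3.89), so that the latter was not detectable at this depth.

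Outside the identity list, cell cycle genes were the list with the most genes called higher than in Cd209a cells by count. As a share of the list, the muscle genes were ahead, with 4 of 6. Of 21 cell cycle genes, 8 were called higher and none lower, with a median log2 fold of 0.83, and 4 to 15 were called under the alternative settings. The mitotic kinase Cdk1 stood at 44.4, 51.4 and 46.6 CPM against 23.2, 17.8 and 13 CPM (log2 fold 1.38 ± 0.20, adjusted p = 0.00167), and the cyclin Ccna2 had a log2 fold of 1.34 ± 0.19 and the chromatin gene Hmgb2 one of 1.19 ± 0.10. The proliferation marker Mki67, with a log2 fold of 0.44 ± 0.13, did not pass the 2-fold limit.

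Cycling cells were counted as cells with at least 2 UMIs over 10 cell cycle genes after thinning to 2000 UMIs. The shares of Xcr1/Clec9a cells were 22.0% (15.2 to 30.0%), 28.8% (18.8 to 40.6%) and 24.6% (17.7 to 32.7%). Cd209a cells gave 10.1%, 13.6% and 11.3%, and Ccr7/Ccl22 cells 8.83%, 9.44% and 9.06%. The share of Xcr1/Clec9a cells was above both in each library, although in old PBS its interval overlapped that of Cd209a cells (7.63 to 21.8%). Between libraries it differed by less than counting error, with ratios for age of 1.31 (0.710 to 2.38) and for treatment of 0.856 (0.483 to 1.55). In cells that were not thinned, the shares came to 38.6%, 50.7% and 47.8% of Xcr1/Clec9a cells. Cd209a cells then gave 30.9%, 38.5% and 31.3%, and Ccr7/Ccl22 cells 34.5%, 39.5% and 33.7%. Without thinning, the intervals of Xcr1/Clec9a cells overlapped those of Cd209a cells in young PBS and old PBS. They overlapped those of Ccr7/Ccl22 cells in every library. Of 21 cell cycle genes, 16 were above 0 for age, with a median log2 ratio of 0.29. Of these 21, 0 were at least 2-fold higher and 2 lower for age, beside 2.32% and 3.26% of all genes. For age, 8 counting intervals lay above 1 and 2 below. For treatment the median was -0.15, with 2 genes at least 2-fold higher and 0 lower, beside 2.03% and 2.3% of all genes. The counting intervals leaned the other way, with 3 above 1 and 7 below. Top2a stood at 165, 248 and 214 CPM and Mki67 at 122, 202 and 168 CPM, highest in old PBS, while the late mitotic genes Ube2c at 147, 48.1 and 143 CPM and Cenpf at 70.8, 22.8 and 74.2 CPM were lowest there. For Ube2c the age ratio was 0.328 (0.243 to 0.436) and the treatment ratio 2.97 (2.23 to 4.01).

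**Figure D4:**
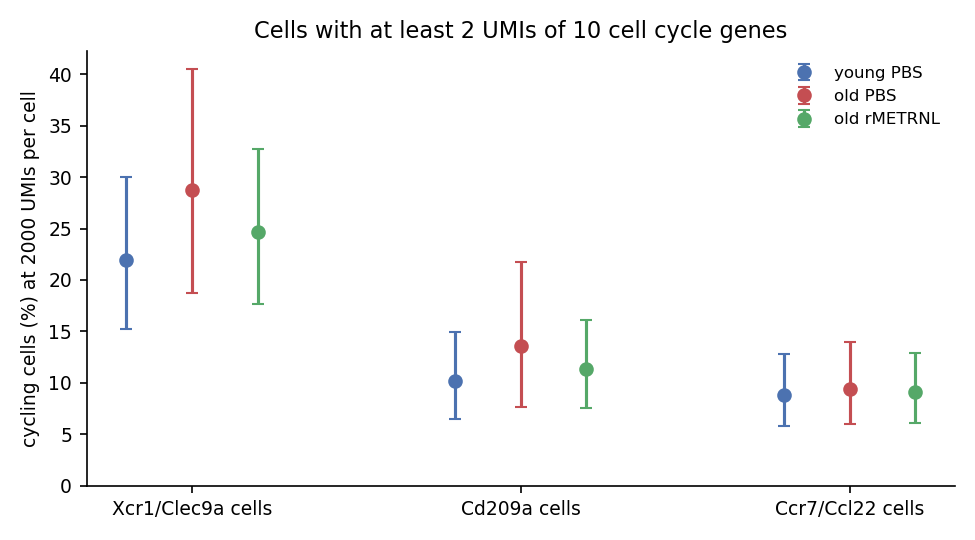
Share of cells (%) with at least 2 UMIs of 10 cell cycle genes after thinning to 2000 UMIs per cell, as points with exact 95% binomial intervals that cover counting error only. The Xcr1/Clec9a cells sat between 22.0% and 28.8%, and the points of the Cd209a and Ccr7/Ccl22 cells sat between 8.83% and 13.6%.

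Within Xcr1/Clec9a cells, 7494 genes with at least 50 UMIs were compared between libraries. From young PBS to old PBS, 174 genes (2.32%) were at least 2-fold higher and 244 (3.26%) at least 2-fold lower. From old PBS to old rMETRNL, 152 genes (2.03%) were at least 2-fold higher and 172 (2.3%) at least 2-fold lower. These counts depended on the setting, and for age they were 54 higher and 67 lower with the mean of per-cell CPM and 66 higher and 49 lower with cells thinned to 2000 UMIs. For treatment they were 28 and 58, and 38 and 38. Both comparisons use the old PBS library with its 73 cells, so a value particular to it enters both with opposite signs. The medians of all genes were 0.02 and -0.01 on the log2 scale.

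Interferon response genes were the list with the most genes past 2-fold by count in both comparisons, among lists of unequal length. As a share of the list, the endothelial genes were ahead for age, with 5 of 5 lower. The FAP genes were ahead for treatment, with 5 of 6 lower. Cells switch these genes on through Stat2 and interferon regulatory factors when they sense type I interferon. Of 17 genes measured, 11 were at least 2-fold lower and 1 higher in old PBS than in young PBS, with a median log2 ratio of -1.24 (interval over the list -1.84 to -0.79), and for 14 the counting interval of the ratio lay below 1. Between old rMETRNL and old PBS, 5 were at least 2-fold higher and 1 lower, with a median of 0.79 (0.30 to 1.16), and 12 intervals lay above 1. The shares past 2-fold over all genes are those given above. Old rMETRNL stayed below young PBS, with a median of -0.50. Lists of other cell types also differed between the libraries in these cells. The 6 plasmacytoid genes measured had medians of -1.26 (3 lower, 0 higher) and 1.36 (3 higher, 0 lower), which ranged over the alternatives from -1.62 to -0.10 and from -0.11 to 1.52, and the 6 monocyte genes had medians of -0.73 and 0.54. The summed level of all 8 genes was 910, 499 and 686 CPM for the plasmacytoid list and 1630, 977 and 1196 CPM for the monocyte list. The part of these lists in the interferon values was not tested.

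Isg15, which encodes a ubiquitin-like modifier, stood at 247, 68.3 and 172 CPM, or ratios for age of 0.277 (0.217 to 0.350) and for treatment of 2.51 (1.97 to 3.24). Irf7, the factor that amplifies interferon production, stood at 509, 235 and 372 CPM, or ratios for age of 0.462 (0.404 to 0.527) and for treatment of 1.58 (1.38 to 1.82). Usp18, the protease that removes Isg15 from proteins and dampens the receptor, stood at 72.2, 16.0 and 70.4 CPM, or ratios for age of 0.222 (0.130 to 0.358) and for treatment of 4.39 (2.72 to 7.5). In all 3 genes young PBS was highest and old PBS lowest, and for Usp18 old rMETRNL was within counting error of young PBS (ratio 0.975, interval 0.775 to 1.23). Ifi44 stood at 64.6, 8.43 and 42.8 CPM, and the RNA-binding Ifit3 at 95.5, 16.0 and 42.8 CPM. Ifit1 stood at 81.6, 11 and 13.3 CPM, with a treatment ratio of 1.21 (0.609 to 2.55), and 61.5% of its 13 UMIs in old PBS came from 1 cell. Without the largest cell of each library its log2 treatment ratio was 1.21 in place of 0.25. Gbp2, a guanylate-binding protein known for its response to interferon gamma, ran opposite at 76.2, 180 and 88.9 CPM, with 37.4% of its old PBS UMIs in 1 cell. For Oas1a and Gbp3 both intervals included 1.

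The UMIs of the 17 genes per 10000 UMIs of a cell had medians of 13.9, 4.00 and 7.67 in Xcr1/Clec9a cells. More than 10 per 10000 were held by 81 of 132 young PBS cells (61.4%, interval 52.5 to 69.7%), 16 of 73 old PBS cells (21.9%, 13.1 to 33.1%) and 60 of 138 old rMETRNL cells (43.5%, 35.1 to 52.2%). The cell with the most UMIs of the list gave 4.04%, 14.3% and 9.05% of them. In old PBS, 1 cell gave over 50% of the UMIs of Ifit1 (61.5%), Ifit3 (57.9%), Rsad2 (61.8%) and Igtp (52.6%). When the largest cell of each gene was left out in each library, the medians moved to -1.58 and 1.01, with 12 genes lower and 9 higher. The totals were kept, and 1 cell is a larger part of 73 cells than of 132 or 138. This step thus tends to lower old PBS by construction. When cells with over 0.1% C1q UMIs were left out, the medians were -2.08 and 1.76, and with at least 1 UMI of both gate genes required they were -2.29 and 1.95. Other settings brought the medians closer to 0, namely -0.83 and 0.58 with the mean of per-cell CPM, -0.86 and 0.50 with the exclusions of the gate dropped, -0.95 and 0.67 without doublet calls, and -0.95 and 0.55 with cells thinned to 2000 UMIs.

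The Cd209a cells had the same order of libraries. Their medians per cell were 14.1, 6.66 and 11.1 per 10000, and the median log2 ratios of the list were -0.95 for old PBS over young PBS and 0.78 for old rMETRNL over old PBS. Cells past the Ccr7/Ccl22 gate had medians per cell of 15.2, 6.51 and 12.4 per 10000 and smaller median log2 ratios of -0.40 and 0.38. Isg15, for example, stood at 237, 99.5 and 221 CPM in Cd209a cells. The difference between the cell sets in these ratios was not tested.

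**Figure D5:**
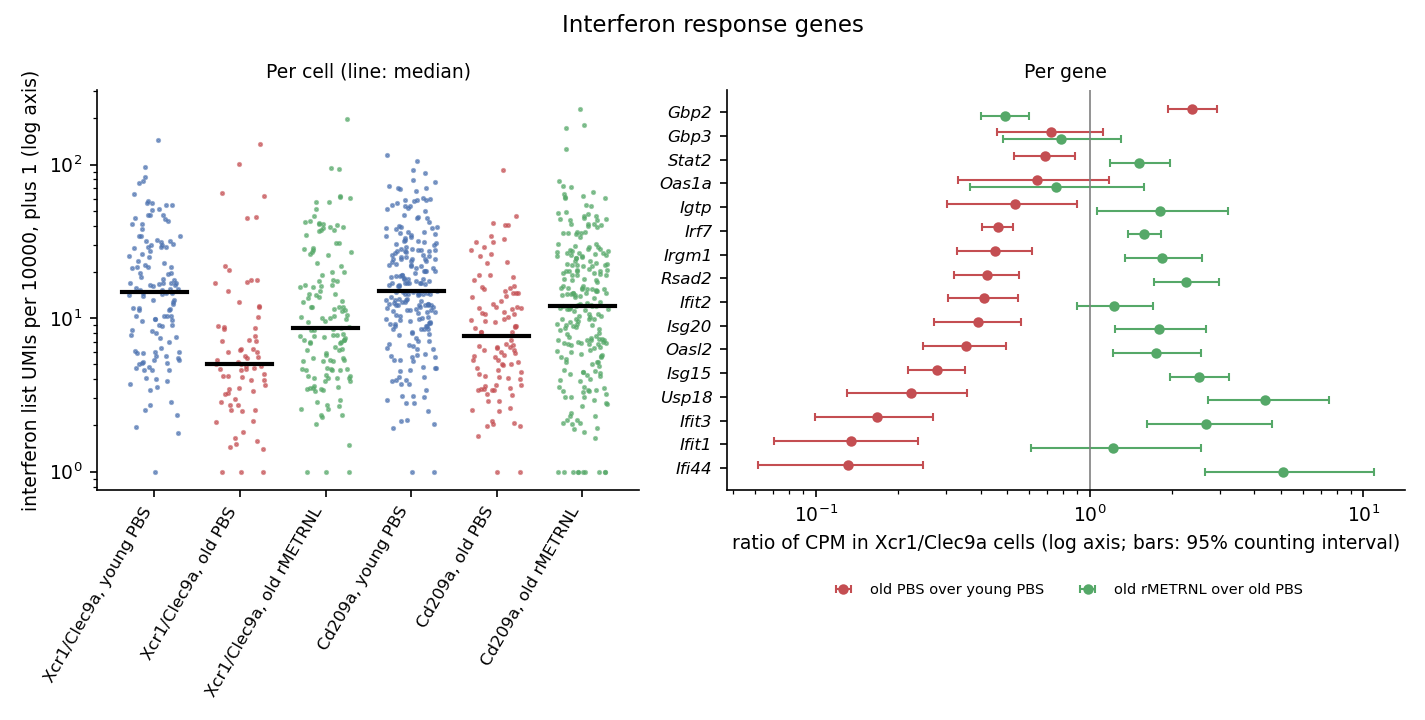
Left, UMIs of 17 interferon response genes per 10000 UMIs of each cell, plus 1, on a log axis, with a black line at the median of each library for Xcr1/Clec9a and Cd209a cells. Right, ratio of CPM between libraries in Xcr1/Clec9a cells for 16 of the genes on a log axis, with exact 95% counting intervals; 11 genes lay at or below a ratio of 0.5 in old PBS over young PBS (red), and Gbp2 lay on the opposite side in both comparisons.

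Promoters of the interferon genes were searched for the core of the interferon-stimulated response element, GAAA, any 2 bases and GAAA again, on either strand, in the 250 bases before the start of each gene (RefSeq, GRCm38.p6). Of 15 listed genes with an entry, 10 (66.7%) held the core, against 3.46% of 27025 genes with an entry. Those with it were Gbp2, Gbp3, Ifit1, Ifit3, Igtp, Irgm1, Isg15, Oas1a, Rsad2 and Stat2, and those without it were Ifi44, Ifit2, Irf7, Isg20 and Oasl2. The core was thus present both before genes lower in old PBS, such as Isg15, and before Gbp2, which was higher, and before Oas1a and Gbp3, which were within counting error. A match is a description of letters only. The 4 promoters below are shown because their genes were lower in old PBS than in young PBS, 3 with the core and Irf7 without it. For Ifit1, the counting interval of old rMETRNL over old PBS included 1 (0.609 to 2.55). Capitals mark matches to the core, to GGAA, any 2 bases and GAAA (a composite element of ETS and interferon regulatory factors) or to TGANTCA (the AP-1 site), which may overlap, and all are printed 5′ to 3′ on the strand of the gene.
Isg15, chr4:156200819-156201068, minus strand: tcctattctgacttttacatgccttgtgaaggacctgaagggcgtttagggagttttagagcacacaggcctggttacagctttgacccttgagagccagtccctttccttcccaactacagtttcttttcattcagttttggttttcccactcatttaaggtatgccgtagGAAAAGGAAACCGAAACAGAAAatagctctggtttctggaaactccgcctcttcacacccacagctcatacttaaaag
Ifit1, chr19:34640639-34640888, plus strand: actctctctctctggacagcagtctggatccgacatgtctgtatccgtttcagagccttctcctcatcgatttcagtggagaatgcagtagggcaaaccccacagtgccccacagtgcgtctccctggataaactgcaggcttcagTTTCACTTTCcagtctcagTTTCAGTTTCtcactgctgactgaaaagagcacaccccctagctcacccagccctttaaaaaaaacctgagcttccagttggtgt
Rsad2, chr12:26456453-26456702, minus strand: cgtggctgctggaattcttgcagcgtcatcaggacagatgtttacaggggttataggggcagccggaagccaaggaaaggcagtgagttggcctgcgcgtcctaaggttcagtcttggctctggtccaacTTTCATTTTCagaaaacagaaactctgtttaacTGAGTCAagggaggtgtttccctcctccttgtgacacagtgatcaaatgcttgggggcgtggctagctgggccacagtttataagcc
Irf7, chr7:141266425-141266674, minus strand: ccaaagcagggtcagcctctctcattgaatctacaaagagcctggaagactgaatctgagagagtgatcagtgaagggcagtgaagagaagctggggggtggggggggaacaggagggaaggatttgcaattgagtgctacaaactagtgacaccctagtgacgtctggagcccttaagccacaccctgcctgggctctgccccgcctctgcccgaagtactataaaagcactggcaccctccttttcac

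In Isg15 the 3 overlapping core matches began 78, 72 and 66 bases before the start, and in Ifit1 both matches lay on the opposite strand, 104 and 85 bases before it. Rsad2 held 1 core match and 1 AP-1 match. In the 250 bases before Xcr1, Clec9a, Naaa, Wdfy4, Tlr3 and Batf3 none of the 3 motifs was found. TGANTCA was present in 6.75%, the composite element in 2.30% and the core in 2.98% of all 32851 promoters.

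Of 20 type 1 genes, 0 were at least 2-fold higher and 2 lower in old PBS than in young PBS, with a median log2 ratio of -0.32, beside 2.32% of all genes higher and 3.26% lower. Between old rMETRNL and old PBS, 1 was higher and 0 lower, with a median of 0.33, beside 2.03% and 2.3% of all genes. The counting interval of the age ratio lay below 1 for 10 genes and above 1 for 2, and that of the treatment ratio above 1 for 9 and below 1 for 1. Snx22 stood at 56.9, 18.6 and 40.9 CPM, or ratios for age of 0.326 (0.197 to 0.515) and for treatment of 2.20 (1.37 to 3.70). The receptor gene Gpr33 was the other gene past 2-fold. Wdfy4 was level across the 3 libraries, and Rab7b, a regulator of endosome traffic, ran the opposite way at 299, 391 and 312 CPM. The lists of MHC class I (median -0.23 and 0.12) and MHC class II (0.01 and 0.06) had no gene past 2-fold in either comparison.

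Of 9 genes taken from the pathway the study addresses, 1 was at least 2-fold higher and 0 lower for age, with a median log2 ratio of 0.37 (interval over the list -0.18 to 0.78). For treatment, 0 were higher and 1 lower, with a median of -0.25 (-0.94 to 0.05). Over all genes, 2.32% were higher and 3.26% lower for age, and 2.03% and 2.3% for treatment. Metrnl stood at 69.0, 116 and 96.5 CPM in Xcr1/Clec9a cells, with a ratio of 1.69 (1.33 to 2.14) for old PBS over young PBS and 0.830 (0.665 to 1.04) for old rMETRNL over old PBS. In Cd209a cells Metrnl stood at 85.3, 137 and 94.1 CPM, and the cell sets did not differ past the test (log2 fold -0.17 ± 0.11, adjusted p = 0.319). Tnf stood at 35.4, 106 and 31.9 CPM in Xcr1/Clec9a cells, or ratios for age of 3.0 (2.25 to 4.03) and for treatment of 0.300 (0.220 to 0.406), and 16.5%, 23% and 26.9% of its UMIs came from 1 cell. In Cd209a cells Tnf was level at 66.2, 64.0 and 52.4 CPM. The TNF receptor gene Tnfrsf1b stood at 61.0, 105 and 69.0 CPM, or ratios for age of 1.72 (1.33 to 2.20) and for treatment of 0.659 (0.515 to 0.845).

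The next 6 immune genes are a choice from those with counting intervals that left out 1 in both comparisons, which share old PBS. Their order is therefore a description. The lists they come from were mixed for age, with 0 genes at least 2-fold higher and 2 lower of 6 chemokine receptors, 3 and 1 of 16 cytokines and chemokines, 0 and 1 of 13 pattern recognition genes and 1 and 0 of 14 uptake genes. Over all genes, 2.32% were at least 2-fold higher and 3.26% lower for age. The chemokine receptor gene Ccr2 stood at 234, 125 and 222 CPM, Cxcr3 at 34.5, 8.43 and 22.4 CPM, the cytokine Il18 at 55.1, 27.8 and 49.5 CPM and Tlr3 at 80.7, 45.5 and 78.9 CPM. Highest in old PBS, Havcr2 stood at 95, 198 and 127 CPM, or ratios for age of 2.09 (1.72 to 2.52) and for treatment of 0.643 (0.538 to 0.770), and the membrane chemokine Cxcl16 at 156, 303 and 195 CPM. No single cell gave more than 12.8% of the UMIs of any of these 6 genes in any library. Cxcl9, with most of its old PBS UMIs in 1 cell, was not among the chosen genes. The low share therefore describes these 6 genes only.

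For many genes furthest apart between libraries, 1 cell held most of the UMIs. Of 16 genes named for old PBS over young PBS, 14 had over 50% of their UMIs in the higher library from 1 cell, and of 16 named for old rMETRNL over old PBS, 7 did. Without the largest cell of each gene in each library, 1 and 2 of these genes turned sign or came under 2-fold, namely Timp1 for the former and Aebp1 and Timp1 for the latter. Several of the others then rested on few UMIs and the 0.5 added to each count. The largest cell held 105 of 107 young PBS UMIs of Gzma, 100 of 104 old PBS UMIs of Inhba and 53 of 57 of Ccn1. No interval was made without the largest cell, and the step takes a larger part from old PBS, the library with the fewest cells. Inhba, the activin A subunit, stood at 2.24, 87.7 and 1.43 CPM, with 96.2% of the old PBS UMIs in 1 cell, and Gzma, a granzyme of cytotoxic lymphocytes, at 48, 0 and 0.476 CPM, with 98.1% of the young PBS UMIs in 1 cell. The others of this kind were genes of vessels (Selp, Cdh5, Aqp1), of FAPs or matrix (Sfrp2, Postn, Timp1, Aebp1) and of myofibres (Acta1, Mylpf, Myl1, Tnnc2), beside Cryab, Mmp12, Ccn1, Gpx3 and Cd69. Acta1 was also found outside the largest cell, with UMIs in 9 of 132, 28 of 73 and 24 of 138 cells, not thinned. The 5 muscle genes on the list had an age median of 1.25, with 3 at least 2-fold higher, and of 2.27, with 4 higher, without the largest cell of each gene, but the alternatives ranged from -0.78 to 3.58. For treatment their median was 0.91, with 2 at least 2-fold higher, and the alternatives ranged from -1.47 to 1.16. All 5 were at least 2-fold higher in old rMETRNL than in young PBS, with a median of 1.94. The 5 endothelial genes on the list were all at least 2-fold lower in old PBS, with a median of -2.76, and 4 were without the largest cell of each gene, with a median of -1.69. Their summed level was 165, 24.5 and 41.9 CPM, and the median cell had 0 in each library. Of 6 FAP genes, 5 were at least 2-fold lower in old rMETRNL than in old PBS, with a median of -1.70 that moved to -0.05 without the largest cell of each gene.

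The genes with under 20% of their UMIs in 1 cell of the higher library were AW011738, Ifi44, Usp18 and Fbxw17. AW011738 (chr4:156203304-156205151, plus strand, mm10) stood at 39.4, 3.37 and 3.80 CPM, with a ratio of 0.0855 (0.0228 to 0.227) for old PBS over young PBS. It lies beside Isg15 (chr4:156199424-156200818, minus strand), which points away from it. Fbxw17, an F-box gene, stood at 28.7, 5.06 and 19.0 CPM, with a ratio of 3.76 (1.58 to 10.9) for old rMETRNL over old PBS. For AW011738 the ratio of old rMETRNL over old PBS was 1.13 (0.302 to 5.12) on 4 and 8 UMIs, an interval that also holds the ratio of Isg15.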

How the data were processed

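Single-cell gene expression was examined in 3 libraries, 1 per group. The deposited values were UMI counts per gene and barcode, which the authors made with Cell Ranger by alignment, UMI counting and cell calling. Versions 5.0.0 and 3.1.0 are both named in the submitters' processing notes, with build mm10, and the files' header names 5.0.0. The files held 32285 features, and 78 features that share a symbol were summed by symbol.

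Kept cells had 500 or more genes and less than 10% of UMIs from mitochondrial genes, and doublet calls (scanpy 1.11.5, Scrublet) were kept in the main values. Its automatic threshold marked 147, 91 and 224 barcodes. UMIs were summed per library and cell set and given as CPM. Cell sets were compared with edgeR 4.0.16 in R 4.3.3 (TMM, filterByExpr, quasi-likelihood test, library block, Benjamini-Hochberg over all genes tested, adjusted p under 0.05 and log2 fold of at least 1), tested on simulated data, with DESeq2 1.42.0 as an alternative. Libraries were compared without a test, over genes with at least 50 UMIs, with 0.5 added to each count for log2 ratios. Intervals were exact Poisson, Clopper-Pearson and conditional ones. The interval of a list's median is the order-statistic interval over its genes. Thinning drew UMIs of each cell without replacement. Software included Python 3.11.15, numpy 2.4.6, scipy 1.17.1, pandas 2.3.3 and matplotlib 3.10.9.

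The gate, the compared cells, the 31 gene lists and the tests were chosen with earlier results of these data known. Of 323 listed symbols, 318 were in the files. Genes named against Cd209a cells were the 15 called genes furthest apart in each direction with at least 20 CPM in the higher set and 1 direction in all libraries. Genes named between libraries were the 8 with the largest and the 8 with the smallest ratio in each comparison, among genes with at least 100 UMIs and an interval that left out 1. Gate genes and genes named Gm or Rik were left out of both, and ribosomal and mitochondrial genes of the latter. Other genes named are members of the lists or of the identity markers, or were chosen after their values were seen (Cst3). Gene coordinates are from GENCODE M21 on GRCm38, matched by ID for 99.8% of features. Promoter sequences are from RefSeq on GRCm38.p6. Some genes that these rules and lists name are not reported here.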

Additional observations from a re-analysis of the deposited data

How the results depend on the processing

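No paired analysis was possible because each group was 1 library, as far as groups are compared. The comparison of the cell sets was paired within libraries by its block, and without the block 313 genes were higher and 369 lower. With each library left out in turn, 277 to 431 genes were higher and 322 to 555 lower in Xcr1/Clec9a cells than in Cd209a cells, the fewest without old rMETRNL and the most without young PBS. DESeq2 called 235 higher and 277 lower. Of the 765 genes called, 507 were also called by DESeq2 and 516 to 655 with a library left out, with no change of sign. Of the same 765, 7 changed sign without doublet calls, 4 without the exclusions and 1 under each of the 2 stricter gates on Xcr1 and Clec9a.

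With at least 1 UMI of both Xcr1 and Clec9a required, 740 genes were lower than in Cd209a cells. The ratios of the share were 0.382 for old PBS over young PBS and 2.25 for old rMETRNL over old PBS. The ratios of Xcr1/Clec9a cells per Cd209a cell moved from 1.15 (0.855 to 1.55) and 0.844 (0.631 to 1.14) to 0.758 and 1.18. Old PBS was then the lowest library in place of the highest, an order that the main intervals, which include 1, do not resolve. The interferon medians were then -2.29 and 1.95, with Xcr1+Clec9a of at least 3 they were -2.43 and 2.05, and without cells of over 0.1% C1q UMIs, an alternative chosen after seeing the data, -2.08 and 1.76. Other alternatives took them down to -0.83 and 0.50 with no change of direction. Acta1 (-0.18), Mylpf (-0.074) and Tnnc2 (-0.067) turned sign for old PBS over young PBS under that first gate, and Postn (0.21) without doublet calls. The cause was not tested.

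Cycling shares without thinning were 38.6%, 50.7% and 47.8%, and 33.3% in old rMETRNL at 5000 UMIs. Counts past 2-fold between libraries moved with the gene minimum by construction. Genes higher in old PBS than young PBS numbered 418 at a minimum of 20 UMIs, 40 at 200, 54 with the mean of per-cell CPM, 66 with cells thinned to 2000 UMIs, 275 without the exclusions and 275 without doublet calls. Lower genes numbered 584, 53, 67 and 49 under the first 4 of these. For old rMETRNL over old PBS, higher genes numbered 406, 32, 28 and 38 under those 4 and 252 with Xcr1+Clec9a of at least 3, and lower genes 465, 39, 58 and 38, and 98 without the exclusions. Depth limits genes under 50 UMIs, which were not compared between libraries.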
